A study of Oryza sativa Indica Group and Oryza sativa Japonica Group with 12 samples.

Results

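H3K27me3-associated chromatin contacts were compared between roots of Zhenshan 97 (ZS97) and roots of Minghui 63 (MH63), 2 varieties of indica rice (Oryza sativa Indica Group). The comparison took 4 of the 12 samples of the series, which are the 2 labelled replicates of each root group, and 2 of its 6 groups. The series also holds seedlings of both varieties, used here as a separate library of each variety, and seedlings of a japonica variety and of a mutant in it, which were not used. Overlapping loop anchors of the 4 indica lists were merged into 14152 regions, and the 9785 of them with at least 20 paired-end tags (PETs) over both root lists were compared. The labels name no treatment, genotype other than the variety, or plant age for any of the groups used, and every group was cross-linked in the same way, with 1% formaldehyde for 10 min and 1.5 mM EGS for 30 min.

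H3K27me3 is the histone mark written by Polycomb repressive complex 2, a machinery that keeps developmental genes silent in tissues where they are not used. ChIA-PET enriches chromatin with a chosen mark, joins DNA ends that lie close together, and reads both ends of each joined molecule as a PET. A loop is a pair of anchors joined by more PETs than the authors' model allows for by chance, and a hub is a region joined to many partner regions. In plant nuclei, H3K27me3 domains are known to contact each other within and between chromosomes.

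Each group was deposited as a single list that pools both replicates, so the spread between replicates is not known, and differences are given without tests or p-values. Brackets hold 95% intervals for counting error alone, exact Clopper-Pearson for shares and ratios. PETs are amplified molecules, so true errors are wider. The ZS97 root list held 110885 loops with 535937 PETs and the MH63 root list 75056 loops with 695423 PETs. The total tags solved from the deposited p-values were 13.4 M in ZS97 root and 41.3 M in MH63 root, against 51.2 M and 22.1 M in the seedlings. Unless another scale is named, a ratio is the share of all PETs of the ZS97 root list over the share in MH63 root. Scaling on total tags multiplies every ratio by 2.39 and adds 1.25 on the log2 scale, so a value less than 2.39-fold lower in ZS97 becomes a higher one on that scale. A loop or region not listed fell below the authors' thresholds, which does not show that the contact was absent. Whether reads of both varieties map equally well to the coordinates used was not tested, and a missing sequence, fewer contacting cells and fewer contacts per cell cannot be told apart.

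ZS97 root held a larger share of its PETs between chromosomes and over 5 Mb than MH63 root, and a smaller share from 20 kb to 1 Mb. PETs between chromosomes made up 32.6% of the ZS97 root list (32.4 to 32.7) and 15.7% of the MH63 root list (15.6 to 15.8). The seedling lists stood in the same order, with 42.1% in ZS97 and 25.4% in MH63. Within chromosomes, the share of PETs under 20 kb was nearly equal, at 12.5% and 12.4%, a ratio of 1.01 (0.998 to 1.02). From 20 to 100 kb ZS97 held 31.0% against 38.3%, and from 100 kb to 1 Mb 17.9% against 28.8%, ratios of 0.810 and 0.623. Over 5 Mb the order turned, with 2.72% in ZS97 and 1.29% in MH63, a ratio of 2.11 (2.06 to 2.17). These are shares of each list, in which a larger share between chromosomes leaves less for the other bands.

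At 1 to 5 Mb the number of loops and the strength of loops went opposite ways. ZS97 root listed 4732 loops of that span with a mean of 3.68 PETs, and MH63 root 2210 loops with a mean of 11.04 PETs. Loops of at least 10 PETs numbered 258 in ZS97 and 490 in MH63, a 1.90-fold difference (1.63 to 2.22) without scaling. ZS97 root thus listed more loops of this span in all, and MH63 root more that reached 10 PETs. Very strong loops of any span, with at least 100 PETs, numbered 402 in ZS97 root and 838 in MH63 root and carried 14.2% and 26.8% of the PETs. Both limits are absolute counts, and total tags were 13.4 M in ZS97 root and 41.3 M in MH63 root. That gap is wider than the gap in either count of strong loops, so the order need not hold at equal depth, which was not tested. The median span within chromosomes was 154 kb in ZS97 (150 to 157) and 103 kb in MH63 (101 to 105), but each PET counted once gave 56.7 kb and 67.9 kb, the reverse order.

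**Figure D1:**
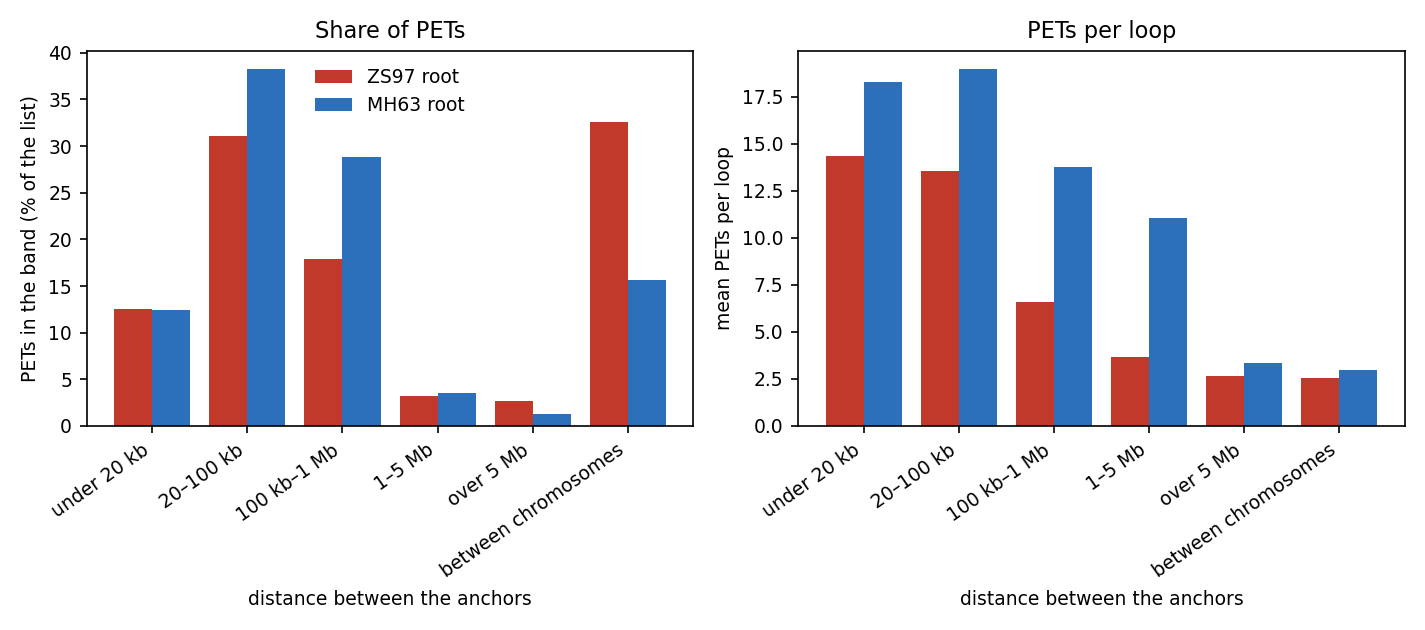
PETs by distance between anchors in ZS97 root (red) and MH63 root (blue). The left bars give the share of the list's PETs in % and the right bars the mean PETs per loop; ZS97 holds 32.6% of its PETs between chromosomes against 15.7%, and at 1 to 5 Mb its loops average 3.68 PETs against 11.04.

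A region was called when its ratio was at least 2-fold and its interval excluded 1. By that rule 1573 of the 9785 were higher in ZS97 root (16.1%) and 2130 lower (21.8%). Over the 8175 regions with a loop in both root lists, 964 were higher (11.8%) and 1129 lower (13.8%). The balance followed the scaling: 5528 were higher and 1190 lower on total tags, 2602 and 1608 on PETs of region pairs listed in both roots, and 1113 and 2919 without scaling, and the median log2 ratio was 1.20, 0.40 and -0.43 on these scales in place of -0.05. The named regions listed in both roots, described next, kept their direction on all 4 scales. They were picked for interval bounds far from 1, and these scales change a ratio by at most 2.39-fold. Their direction could thus not turn, so this is no check.

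The tags at the anchors, a measure of how much marked chromatin was recovered there, moved with the PETs in part. They are known only for anchors of listed loops. A stretch of a region without a listed loop adds no tags, so part of the agreement is built in. Of the 964 higher regions listed in both roots, 336 also had at least 2-fold more of their list's anchor tags in ZS97, 628 lay within 2-fold, and 0 went the other way. Of the 1129 lower regions, 519 also had at least 2-fold fewer tags, 601 lay within 2-fold and 9 had at least 2-fold more. Pearson's r between the log2 PET ratio and the log2 tag ratio was 0.71 over the 8175 regions, a description across regions of the same libraries, which share depth and anchors. Tags were at least 2-fold apart in 16.5% of them, and PETs in 25.6%.

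The variety difference was partly shared with seedlings. Of the 760 higher regions listed in both roots that could be compared in seedlings, 276 were also higher in ZS97 seedling and 14 were lower. Of the 663 lower ones, 202 were also lower in seedling and 130 were higher. Over all 6598 regions compared in both tissues, 23.8% were higher and 11.3% lower in ZS97 seedling, which is the background for these counts. The 2 seedling lists come from other libraries than the root lists.

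The clearest gain in ZS97 among regions listed in both roots was 3233023 to 3239290 on chromosome 12, 6.27 kb wide. It had 203 PETs with 43 partner regions in ZS97 root, 11 PETs with 5 partners in MH63 root, 136 PETs in ZS97 seedling and 17 in MH63 seedling. Both ZS97 lists stood far above both MH63 lists, and in roots the ratio was 23.9 (13.1 to 48.7). Its share of anchor tags was 20.5 times as high in ZS97 root.

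The region at 17799187 to 17805459 on chromosome 11 showed the same order, with 123 PETs in ZS97 root, 8 in MH63 root, 86 in ZS97 seedling and 9 in MH63 seedling. The ratio in roots was 19.95 (9.81 to 47.2). On the same chromosome, 27158821 to 27167970 had 189, 16, 41 and 2 PETs in ZS97 root, MH63 root, ZS97 seedling and MH63 seedling, a root ratio of 15.3 (9.20 to 27.4). Both tissues thus held more of this contact in ZS97. The region at 19636101 to 19642174 on chromosome 8 had 73 PETs in ZS97 root, 2 in MH63 root, 20 in ZS97 seedling and none listed in MH63 seedling.

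Other gains in ZS97 were seen in roots and not in seedlings. The region at 7072505 to 7080734 on chromosome 8 had 288 PETs in ZS97 root and 28 in MH63 root, a ratio of 13.3 (9.04 to 20.4), and no listed loop in either seedling list. In ZS97 root, 113 of its PETs joined it to a single neighbour 24.7 kb away, 7085412 to 7117237. The region at 17667391 to 17673769 on chromosome 4 had 64 PETs in ZS97 root against 4 in MH63 root, a ratio of 20.8 (7.72 to 78.5), while the seedlings were alike with 114 and 120. The tissue difference itself was not tested.

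The deepest deficit of ZS97 root by the same rule was 1445393 to 1453108 on chromosome 4, with 4 PETs in ZS97 root and 362 in MH63 root, 69.7-fold lower (27.01 to 257). No loop was listed there in either seedling list. On chromosome 9, 22018023 to 22043378 had 8 PETs in ZS97 root, 537 in MH63 root, 17 in ZS97 seedling and 627 in MH63 seedling. It was 51.7-fold lower in ZS97 root (26.1 to 120), and both ZS97 lists lay below both MH63 lists. Its neighbour at 21999272 to 22008628, 26.8 kb away and its strongest partner in MH63 root with 126 PETs, had 6 PETs in ZS97 root and 321 in MH63 root. In ZS97 root the strongest contact of either region had 2 PETs.

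Another deficit lay near the start of chromosome 10, where 151729 to 167413 had 21 PETs in ZS97 root, 693 in MH63 root, 13 in ZS97 seedling and 158 in MH63 seedling. It was 25.4-fold lower in ZS97 root (16.5 to 41.3). The region at 6481398 to 6509116 on chromosome 9 had 12, 495, 14 and 72 PETs in ZS97 root, MH63 root, ZS97 seedling and MH63 seedling. It was 31.8-fold lower in ZS97 root (18.0 to 61.9), with 6 partners against 49.

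The region at 13620418 to 13667032 on chromosome 12, 46.6 kb wide, lacked its near partners in ZS97 and kept a distant one. It had 71 PETs in ZS97 root, 2327 in MH63 root, 86 in ZS97 seedling and 1391 in MH63 seedling, which is 25.3-fold lower in ZS97 root (19.9 to 32.5). MH63 listed 26 partners of it within 1 Mb in root and 17 in seedling, and ZS97 listed 0 in either tissue. Of its 71 PETs in ZS97 root, 45 joined it to 17578538 to 17728023, 4.01 Mb away, a contact of 235 PETs in MH63 root and of 54 in ZS97 seedling. Its anchor tags, known only at anchors of listed loops, were 328 in ZS97 root and 34093 in MH63 root. As shares of each list's anchor tags the ratio was 0.0333. It was 1 of 21 regions of at least 50 PETs with no listed partner within 1 Mb in ZS97 root, out of 4261, and it was picked for this description after its values were seen. Just next to it, 13491449 to 13514863 and 13668210 to 13679056 had 742 and 573 PETs in MH63 root and no listed loop in either ZS97 list.

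Of the higher regions, 525 had no listed loop in either MH63 list and 84 had none in MH63 root but some in MH63 seedling. Of the lower regions, 942 had none in either ZS97 list and 59 had none in ZS97 root but some in ZS97 seedling. Regions missing from both lists of a variety were short, with a median width of 1.84 kb on the higher side and 1.96 kb on the lower side. Regions were merged from anchors of all 4 lists, so those missing from a variety had fewer anchors to widen them. Part of their short width is thus built in. In the list that held them their median was 36 PETs in ZS97 root and 44 in MH63 root, below the 70 and 55 of called regions listed in both roots, and the 4 strongest had 279 to 371 and 471 to 742 PETs. The region at 18470307 to 18475081 on chromosome 8 had 340 PETs in ZS97 root and 460 in ZS97 seedling, of which 180 in root joined it to 18485335 to 18532024, 36.0 kb away. In contrast, 1121617 to 1132094 on chromosome 4 had 371 PETs with 50 partners in ZS97 root and no listed loop in any other list.

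A further set had no listed loop in the other variety's root but did in its seedling, so that both varieties have loops there in some tissue. On chromosome 1, 27917435 to 27924203 had 145 PETs in ZS97 root, none listed in MH63 root, 113 in ZS97 seedling and 4 in MH63 seedling. On chromosome 4, 25681755 to 25684818 had 122 PETs in ZS97 root, none listed in MH63 root, and 64 and 55 in ZS97 and MH63 seedling. On the MH63 side, 29316393 to 29334801 on chromosome 11 had 550 PETs with 41 partners in MH63 root, none listed in ZS97 root, 23 in ZS97 seedling and 137 in MH63 seedling. At 404506 to 407730 on chromosome 10, MH63 root had 112 PETs and ZS97 seedling 15, and neither of the other lists held a loop.

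Width and chromosome set apart where differences were common. Of 636 regions under 1 kb, 48.3% were lower in ZS97 root and 20.3% higher, and of 563 regions of at least 20 kb 9.59% were lower and 7.64% higher. Merging widens regions with anchors in several lists, so part of this link with width is built in. These wide regions held 36.6% of the summed region PETs in ZS97 root and 37.7% in MH63 root, and regions of 5 to 20 kb held 44.8% and 42.5%. By chromosome, the lower share ran from 13.6% on chromosome 3 (11.5 to 16.0) to 30.9% on chromosome 12 (27.5 to 34.5). The higher share ran from 11.2% on chromosome 9 (8.80 to 13.99) to 22.1% on chromosome 11 (19.5 to 25.0). Within-chromosome PETs of chromosome 3 made up 9.44% of all such PETs in ZS97 root and 7.66% in MH63 root, a ratio of 1.23 (1.22 to 1.25), and the seedling ratio was 1.24. Chromosomes 12 and 7 had ratios of 0.857 and 0.834 on this scale in roots, and 0.699 and 0.858 in seedlings.

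Along the chromosomes, 681 windows of 500 kb with at least 200 PETs were compared. In ZS97 root 160 windows were higher by 1.5-fold or more (23.5%) and 51 were lower (7.49%), and the median window had a log2 ratio of 0.26. On chromosome 3, 25 of 69 windows were higher and 0 lower, and on chromosome 12, 9 of 48 were higher and 12 lower. In seedlings, 138 of the 160 higher windows had a ratio above 1 and 40 of the 51 lower ones a ratio below 1, where 67.4% of all compared windows lay above 1. On total tags, 637 windows were higher and 6 lower.

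**Figure D2:**
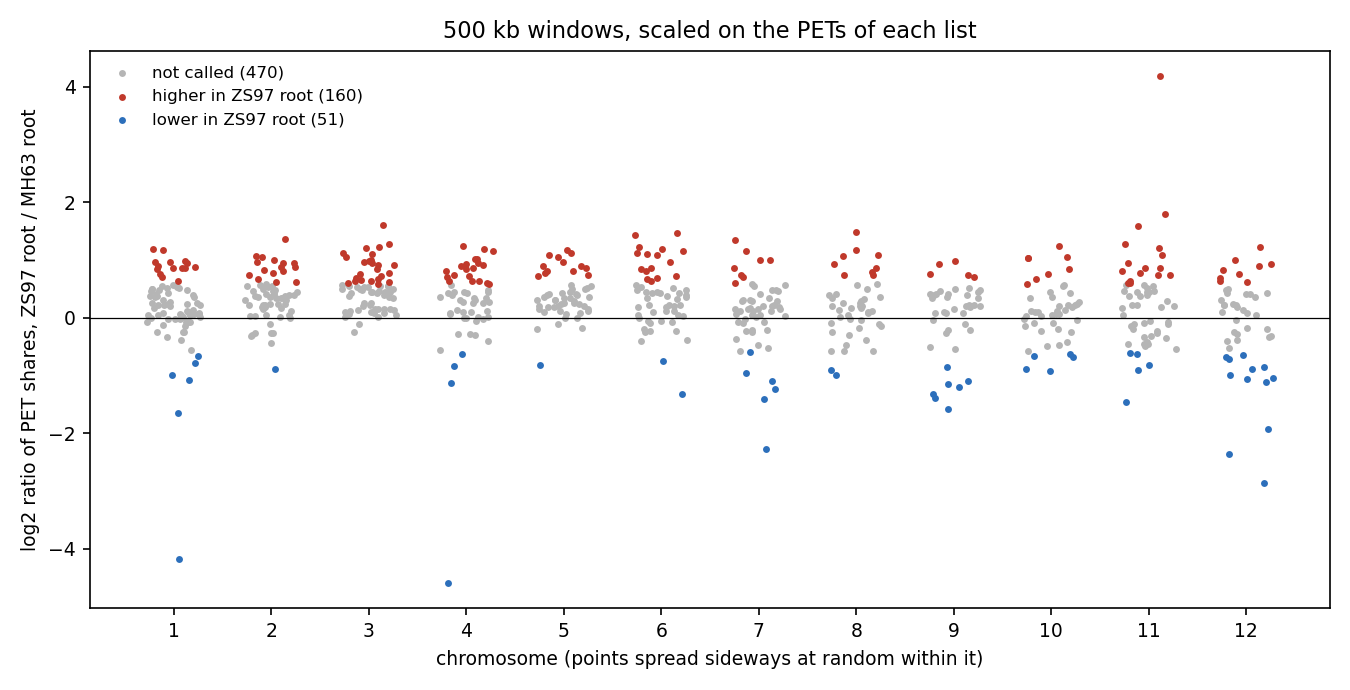
Log2 ratio of PET shares (ZS97 root over MH63 root, vertical axis) in the 681 compared windows of 500 kb, by chromosome; red points were at least 1.5-fold higher in ZS97 root, blue points lower. Most chromosomes centre slightly above 0, chromosome 3 has no blue point, and windows on chromosomes 4 and 1 reach -4.58 and -4.18; on total tags every point moves up by 1.25, which leaves 6 windows lower.

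The 6 windows that stayed lower on total tags lay on chromosomes 1, 4, 7 and 12. The window at 2.5 to 3 Mb on chromosome 4 had 22 PETs in ZS97 root, 685 in MH63 root, 7 in ZS97 seedling and 364 in MH63 seedling. It was 24.0-fold lower in ZS97 root (15.7 to 38.5), a log2 ratio of -3.33 on total tags. At 12.5 to 13 Mb on chromosome 1 the PETs were 65, 1525, 41 and 426 in ZS97 root, MH63 root, ZS97 seedling and MH63 seedling, 18.1-fold lower (14.1 to 23.5). These are stretches of 500 kb with few listed contacts of ZS97 in either tissue, while MH63 had at least 364 PETs in each. The other 4 were 10.5 to 11, 13 to 13.5 and 13.5 to 14 Mb on chromosome 12 and 6.5 to 7 Mb on chromosome 7, 7.30-, 3.78-, 5.11- and 4.81-fold lower. On the other side, 27.5 to 28 Mb on chromosome 11 had 210 PETs in ZS97 root, 15 in MH63 root, 79 in ZS97 seedling and 35 in MH63 seedling, a ratio of 18.2 (10.8 to 33.0). The windows next to it, from 27 and from 28 Mb, had ratios of 2.99 and 3.46. The windows named in this paragraph were chosen for their values.

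Neighbouring called windows formed 37 blocks higher in ZS97 root, 48.5 Mb in all on 12 chromosomes, and 6 blocks lower, 9 Mb on 4 chromosomes. The higher blocks held 17.6% of the ZS97 root PETs and 9.63% of the MH63 root PETs, and their ratios ran from 1.57 to 2.49. All PETs between chromosomes had a ratio of 2.07, so a higher block need not be higher inside. At 26.5 to 28.5 Mb on chromosome 5 the ratio was 0.990 inside the block and 2.94 to other chromosomes. At 20.5 to 21.5 Mb on chromosome 3 these were 0.314 (0.166 to 0.558), from 15 and 62 PETs, and 3.02. In contrast, 21.5 to 22.5 Mb on chromosome 6 had 2.57 inside and 2.04 to other chromosomes. These blocks were picked as contrasts after their values were seen. On total tags the counts of higher and lower blocks were 51 and 1. With loops within chromosomes only, scaled on the PETs within chromosomes of each list, they were 22 and 16. In seedlings, 32 of the 37 higher blocks and all 6 lower blocks had the same direction, 14 and 3 of them by at least 1.5-fold.

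The deepest lower block was 12.5 to 15 Mb on chromosome 12, with 3372 PETs in ZS97 root, 11849 in MH63 root, 1165 in ZS97 seedling and 5094 in MH63 seedling. It was 2.71-fold lower in ZS97 root (2.61 to 2.81) and 4.15-fold lower in ZS97 seedling (3.90 to 4.43), and on total tags its root log2 ratio was -0.18. Of its 87 compared regions, 63 were lower and 9 higher. Loops with both ends in the block had 877 PETs in ZS97 root and 6271 in MH63 root, 5.51-fold lower. Its PETs to the rest of the chromosome were 786 and 3290, 3.23-fold lower, and those to other chromosomes 1709 and 2288, a ratio of 0.969 (0.910 to 1.03) where all PETs between chromosomes had a ratio of 2.07. The share of anchor tags in the block was also 2.66-fold lower in ZS97 root. In the part from 13 to 14 Mb it stayed a lower block on total tags.

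At 6 to 7 Mb on chromosome 7, ZS97 root had 1823 PETs and MH63 root 5663, 2.39-fold lower (2.27 to 2.53) and near equal on total tags, with a log2 ratio of -0.01. The seedlings had 1156 and 1601 PETs. None of its 36 compared regions was higher and 26 were lower. At 12 to 14 Mb on chromosome 1, ZS97 root had 1442 PETs and MH63 root 4161, 2.22-fold lower (2.09 to 2.36), turning to a log2 ratio of 0.10 on total tags, and the seedlings had 1046 and 2116. Inside the blocks on chromosomes 7 and 1 the root ratios were 0.157 and 0.165, and to other chromosomes 1.26 and 0.975.

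The block with the most PETs of any lower one was 24.5 to 26 Mb on chromosome 11. It had 9124 PETs in ZS97 root, 21028 in MH63 root, 5382 in ZS97 seedling and 7971 in MH63 seedling, 1.78-fold lower in ZS97 root (1.73 to 1.82) but with a log2 ratio of 0.43 on total tags. Its strongest loop had 383 PETs in ZS97 root and 1304 in MH63 root. At 16.5 to 17.5 Mb on chromosome 12 the PETs were 5312 and 12195 in roots, 1.77-fold lower (1.71 to 1.83) but with a log2 ratio of 0.43 on total tags, and 2034 and 5065 in seedlings. The lower block at 8 to 9 Mb on chromosome 12 had 575 and 1291 PETs in roots, 1.73-fold lower (1.57 to 1.91) but with a log2 ratio of 0.46 on total tags. Inside these blocks the root ratios were 0.448, 0.519 and 0.188, in the order given. To other chromosomes they were 1.94 (1.80 to 2.09), 2.33 (2.14 to 2.53) and 1.05 (0.922 to 1.19), where all such PETs had 2.07. As shares of the list, only their PETs within the chromosome were thus lower in ZS97 root.

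Scaling on total tags raises every ratio, so it bears on the lower blocks and not on the direction of the higher ones. Among the 5 higher blocks with the most PETs in ZS97 root, the block at 12 to 14 Mb on chromosome 3 had 6001 PETs in ZS97 root, 4803 in MH63 root, 6329 in ZS97 seedling and 4933 in MH63 seedling, a root ratio of 1.62 (1.56 to 1.68). Its PETs to other chromosomes were 2251 in ZS97 root and 1221 in MH63 root, a ratio of 2.39 (2.23 to 2.57). Its inside PETs were 3025 and 3176, a ratio of 1.24 (1.18 to 1.30). With all loops the log2 ratio of the block was 0.70. With loops within chromosomes only it was 0.76, but on another scale, the PETs within chromosomes of each list. The block at 14 to 15.5 Mb on chromosome 4 had a ratio of 1.76 (1.69 to 1.84), with 5101 and 3756 PETs in roots. At 39.5 to 40.5 Mb on chromosome 1 the ratio was 1.81 in roots (1.73 to 1.90) and 1.11 in seedlings (1.07 to 1.15). At 1 to 3 Mb on chromosome 6 it was 1.96 in roots (1.87 to 2.05) and 1.78 in seedlings (1.71 to 1.87), and 24 of 64 compared regions were higher. At 24 to 25 Mb on chromosome 8, where a single loop had 805 PETs in ZS97 root and the strongest in MH63 root had 613, the ratio was 2.10 (1.99 to 2.21).

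**Figure D3:**
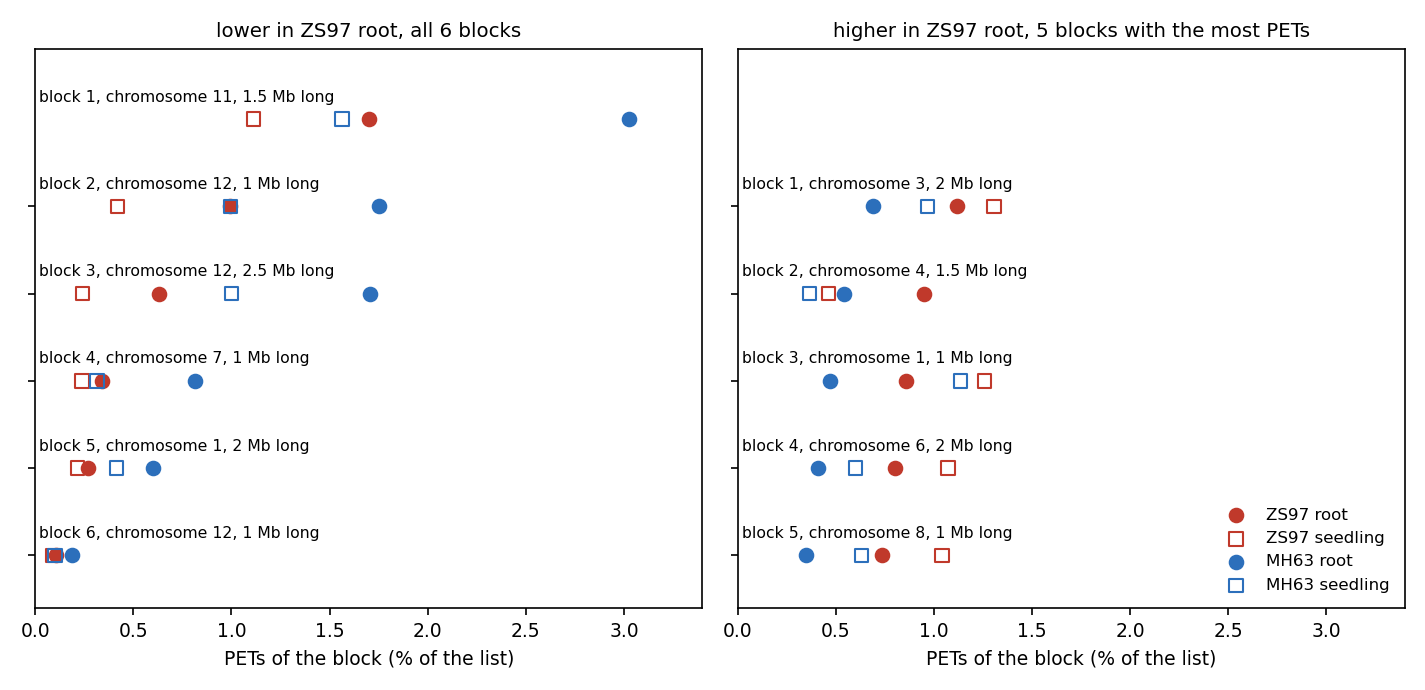
Share of each list's PETs in % (horizontal axis) for the 6 blocks lower in ZS97 root (left) and the 5 higher blocks with the most PETs (right); filled circles are roots, open squares seedlings, red ZS97 and blue MH63. In lower block 3, the stretch of 2.5 Mb on chromosome 12, both ZS97 points lie below both MH63 points; on total tags 4 of the 6 lower blocks (blocks 1, 2, 5 and 6) turn to higher in roots.

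The same region pairs carried most contacts of both varieties within chromosomes. The root lists held 36277 such pairs in ZS97 and 35986 in MH63, of which 15347 were in both, 42.3% of the ZS97 pairs and 42.6% of the MH63 pairs. The shared pairs carried 76.9% of the within-chromosome PETs in ZS97 root and 78.0% in MH63 root. Of the 7426 shared pairs with at least 20 PETs, 333 were called higher in ZS97 root (4.48%) and 1876 lower (25.3%), and the median log2 ratio was -0.53. Scaled on PETs within chromosomes, 567 were higher and 1246 lower, on total tags 2463 and 300, and without scaling 202 and 3057.

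Among the shared pairs with at least 20 PETs, the shift was deeper at 1 to 5 Mb than at shorter distances. Shared pairs under 20 kb had a median log2 ratio of -0.41, those of 100 kb to 1 Mb -0.62, the 182 pairs of 1 to 5 Mb -1.54, and the 8 pairs over 5 Mb -1.29. Of those 182, 0 were higher and 113 lower in ZS97 root, and scaled on PETs within chromosomes 1 was higher and 95 lower. On total tags 17 were higher and 34 lower, and their median log2 ratio was -0.29 where that of all shared pairs was 0.73. A change of scale shifts pairs of every distance alike, so it cannot change the order of the distances and is no check on it. The order holds for pairs listed in both roots with at least 20 PETs. Loops of 1 to 5 Mb averaged 3.68 PETs in ZS97 root and 11.04 in MH63 root. At that span a limit on the summed PETs favours pairs that are high in MH63. Part of the deeper shift, and of the lack of higher pairs, may thus be built in, and how much was not tested. Over all PETs of a span the order differed. There the log2 ratio was -0.68 at 100 kb to 1 Mb, -0.11 at 1 to 5 Mb and 1.08 over 5 Mb.

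Chromosomes 11 and 12 held most of these long strong contacts. Of the 24400 PETs at 1 to 5 Mb in MH63 root, 8827 were on chromosome 12 and 5747 on chromosome 11, and of 17394 in ZS97 root 3546 and 3583. Without scaling, loops of at least 10 PETs at that span numbered 76 in ZS97 root and 199 in MH63 root on chromosome 12, and 65 and 110 on chromosome 11. As a share of the list, the ratio was 0.521 on chromosome 12 (0.501 to 0.542), against 2.26 on chromosome 1 and 2.40 on chromosome 3. The strongest pair of this span in both roots joined 17578538 to 17728023 with 18741909 to 18842915 on chromosome 12. It had 162 PETs in ZS97 root, 479 in MH63 root, 192 in ZS97 seedling and 426 in MH63 seedling. On chromosome 2, 16984222 to 17180348 and 20088972 to 20149878, 3.04 Mb apart, were joined by 51, 397, 9 and 218 PETs in ZS97 root, MH63 root, ZS97 seedling and MH63 seedling. On chromosome 11, 24749932 to 24898321 and 26110617 to 26204868 were joined by 11 PETs in ZS97 root, 387 in MH63 root and 191 in MH63 seedling, and were not listed as joined in ZS97 seedling. These pairs were taken as the strongest after their values were seen.

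Hubs were partly shared. Of the 100 regions with the most partners in each root list, 45 were in both sets (45.0%, 35.03 to 55.3). All 100 hubs of ZS97 root, picked for their partners in that list, had more partners there than in MH63 root, with medians of 127 and 44. Most of the extra partners were on other chromosomes, which made up 70.2% of their partners in ZS97 root and 42.4% in MH63 root. The whole lists differed in the same way. They held 68973 region pairs between chromosomes in ZS97 root and 36860 in MH63 root, beside 36277 and 35986 within chromosomes. Of the 100 hubs of MH63 root, 92 also had more partners in ZS97 root. The sets overlapped more when regions were ranked by PETs, with 69 of 100 shared.

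The leading hub of both roots was 17578538 to 17728023 on chromosome 12, 149 kb wide, with 362 partners in ZS97 root, 107 in MH63 root, 330 in ZS97 seedling and 236 in MH63 seedling. Its PETs were 3440 in ZS97 root and 6611 in MH63 root, so ZS97 spread fewer PETs over more partners. Within the chromosome, 47 of its 81 MH63 root partners were also listed in ZS97 root, while between chromosomes 1 of 26 was. The next hubs of ZS97 root lay on chromosome 7 at 2097536 to 2260136, with 310 partners against 72, and on chromosome 1 at 4954220 to 5091484, with 308 against 56. Both had at least 222 partners in each seedling list. The chromosome 1 hub also had more PETs, 3191 in ZS97 root and 1277 in MH63 root, a ratio of 3.24 (3.04 to 3.46), whereas the chromosome 7 hub had 4660 and 8540. In seedlings the chromosome 1 hub stood the other way, with 232 partners and 4683 PETs in ZS97 against 293 and 6720 in MH63. The chromosome 7 hub had 246 partners and 5164 PETs in ZS97 seedling against 222 and 9072 in MH63 seedling. Counting partners joined by at least 3 PETs, the 3 hubs still had more in ZS97 root than in MH63 root, with 184, 150 and 154 against 106, 66 and 54.

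The MH63 root hub at 13074392 to 13104735 on chromosome 4 was a root hub in both varieties, with 117 partners in ZS97 root and 88 in MH63 root, against 32 and 11 in the seedlings. Its PETs were 932 and 1205 in roots and 107 and 23 in seedlings. The regions with the largest deficits of partners in ZS97 root were the chromosome 12 region at 13620418 to 13667032, with 12 against 67, the chromosome 9 region at 6481398 to 6509116, with 6 against 49, and 9329529 to 9351930 on chromosome 9. The last had 43 partners with 578 PETs in MH63 root and 35 partners with 149 PETs in MH63 seedling, and no listed loop in either ZS97 list.

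**Figure D4:**
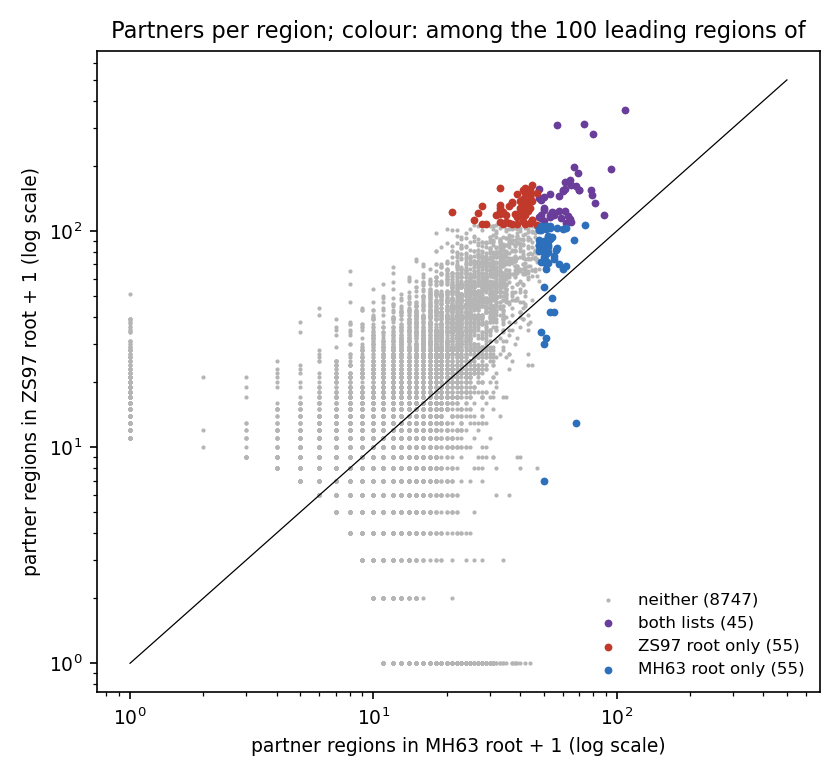
Partner regions per region in MH63 root (horizontal) and ZS97 root (vertical), each plus 1 on log axes, for regions with at least 10 partners over both lists; the line marks equal numbers. Purple points are the 45 regions leading in both lists, red and blue points lead in 1 list; all leading regions of ZS97 root lie above the line, and 8 of the blue points lie below it.

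Between whole chromosomes the varieties were close. Of the 66 chromosome pairs, 0 were at least 1.5-fold higher in ZS97 root (0%) and 0 were lower (0%) as a share of the PETs between chromosomes. Intervals excluded 1 in 19 pairs on the higher side and 21 on the lower side. Log2 ratios ran from -0.41 for chromosomes 7 and 10, with 1773 PETs in ZS97 root and 1473 in MH63 root, to 0.32 for chromosomes 3 and 5, with 2987 and 1496. Pairs with chromosome 10 were lower in ZS97 root with an interval below 1 in 9 of 11 cases, and chromosome 10 took part in 12.7% of the PETs between chromosomes in ZS97 root and 14.3% in MH63 root. The pair of chromosomes 4 and 8, with a ratio of 1.25, fell to 1.17 without its strongest region pair, which alone had 216 PETs. As a share of all PETs of the list, where 32.6% against 15.7% lay between chromosomes, all 66 pairs were higher in ZS97 root by 1.5-fold or more.

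**Figure D5:**
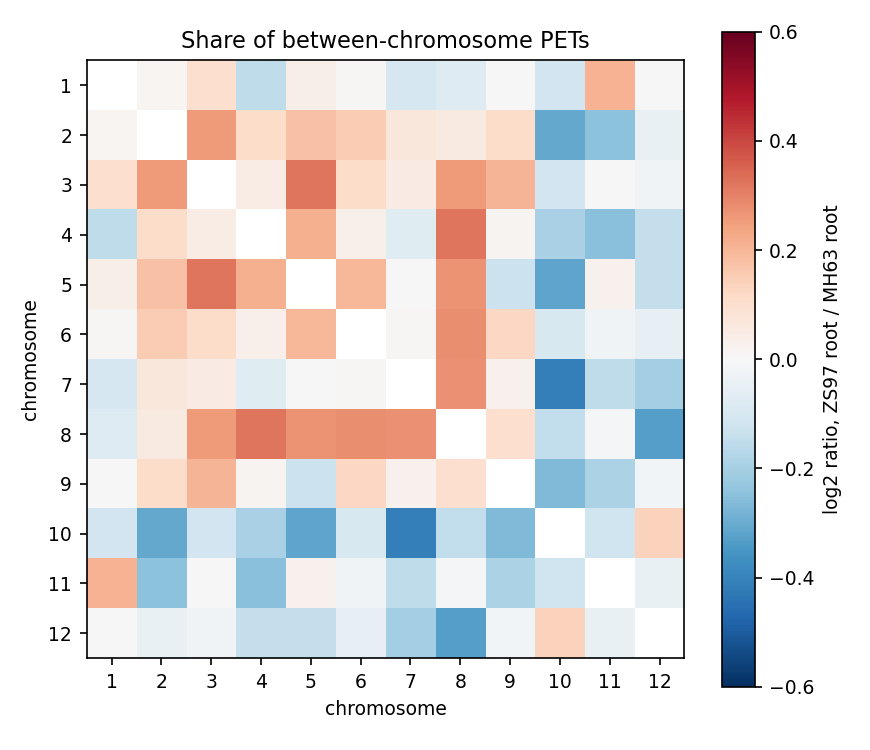
Log2 ratio (colour) of each chromosome pair's share of between-chromosome PETs, ZS97 root over MH63 root; both axes are chromosomes, red is higher in ZS97 and blue lower, and the diagonal is empty. The 66 pairs lie between -0.41 and 0.32, and the row of chromosome 10 is mostly blue.

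The region pairs behind these totals were mostly different. Between chromosomes, ZS97 root listed 68973 region pairs and MH63 root 36860, and 200 were in both, 0.290% of the former and 0.543% of the latter. Among strong pairs, with at least 10 PETs, 18 of 423 in ZS97 root were listed in MH63 root (4.26%, 2.54 to 6.64) and 42 of 636 in MH63 root were listed in ZS97 root (6.60%, 4.80 to 8.82). More of the ZS97 strong pairs were found in that variety's own seedling, 77 of 423 (18.2%, 14.6 to 22.2), than of the MH63 ones, 40 of 636 (6.29%, 4.53 to 8.47). Of the strong pairs not listed in the other root, 350 of 405 in ZS97 and 561 of 594 in MH63 joined regions that both had loops with other partners in that list.

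The strongest pair of ZS97 root not listed in MH63 root joined 12178637 to 12186151 on chromosome 4 with 16855769 to 16867939 on chromosome 8, by 216 PETs in root and 348 in ZS97 seedling. It was listed in neither MH63 list, although the regions had 72 and 384 PETs in MH63 root. The next joined 21238916 to 21242836 on chromosome 3 with 4784808 to 4847409 on chromosome 8, by 164 PETs in ZS97 root and 317 in ZS97 seedling. Here the chromosome 3 region had no listed loop in MH63 at all. The pair of the chromosome 2 hub at 16984222 to 17180348 with 22917122 to 22922500 on chromosome 6 had 96 PETs in ZS97 root and 194 in ZS97 seedling, and the chromosome 6 region had no listed loop in MH63. Likewise, 2359417 to 2368960 on chromosome 1 was joined to 8989320 to 8991211 on chromosome 6 by 58 and 101 PETs, and the latter had no listed loop in MH63. A pair of 81 PETs, joining 3121572 to 3146813 on chromosome 10 to 9450995 to 9454038 on chromosome 12, was not listed in ZS97 seedling, and it held 81 of the 164 ZS97 root PETs of the chromosome 12 region, which had no listed loop in MH63. For the other 3 regions with no listed loop in MH63, on chromosomes 3, 6 and 6, these pairs carried 164 of 242, 96 of 167 and 58 of 141 PETs in ZS97 root, and 317 of 367, 194 of 234 and 101 of 126 in ZS97 seedling. A partner on another chromosome thus held most PETs of these regions in ZS97 seedling, and of the first and the second in ZS97 root.

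Of the 5 strongest pairs of MH63 root not listed in ZS97 root, 4 were not listed in MH63 seedling either. The strongest joined 20250437 to 20264065 on chromosome 11 with the chromosome 4 hub at 13074392 to 13104735 by 78 PETs, and the next 17010251 to 17070519 on chromosome 8 with 15526833 to 15583543 on chromosome 9 by 76 PETs. The exception joined chromosome 10 (16616016 to 16623637) and chromosome 11 (22038960 to 22063367), by 66 PETs in root and 13 in seedling. All 10 regions of these 5 pairs had loops in ZS97 root, from 48 PETs with 16 partners to 2673 PETs with 172 partners.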

How the data were processed

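The members, lists and rules were chosen with earlier results of these data known. H3K27me3 ChIA-PET loops were deposited as 1 list per group, pooling 2 labelled replicates. The PETs of a loop and the tags at its anchors are whole-number counts as the authors deposited them, not normalised. The authors' p-values and FDR values were used as deposited, with a highest FDR of 0.0499 in the root lists. The loop caller, aligner and genome build were not given in the sources used here, and no annotation of that build was used, so regions stand in for genes and no sequence is printed. Sequencing was of 150 bp paired ends, per the labels' protocols.

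Anchors of the 4 lists overlapping by at least 1 bp were merged, and PETs were summed per region, window, region pair and chromosome pair, each loop once. Calls needed at least 20 PETs and 2 fold for regions and region pairs, 200 PETs and 1.5 fold for windows, 1.5 fold for chromosome pairs, and an interval excluding 1. A count of 0 entered calls as a floor of 3 PETs, and no fold against 0 is printed. Blocks are at least 2 neighbouring windows called alike. Total tags are the number with which a Poisson model returns the deposited p-values, solved on 2-PET loops whose anchors both had over 200 tags.

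Named items are, in each direction, the 6 regions listed in both roots with the interval bound farthest from 1, the 4 strongest absent from the other variety and from its root only, 5 blocks, 5 hubs, 3 partner differences and 5 region pairs between chromosomes; other items are said to be chosen after their values. Not every one is described. The call rule and the total were tested on simulated data. Alternatives covered scaling, filters, window size and thresholds. Python 3.11.15, numpy 2.4.6, pandas 2.3.3, scipy 1.17.1 and matplotlib 3.10.9 were used.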

Additional observations from a re-analysis of the deposited data

Results flagged for a closer look

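MH63 root had 23 loops, with 51 PETs, that end on a sequence not placed on any of the 12 chromosomes, and such loops numbered 21 in ZS97 seedling and 28 in MH63 seedling. ZS97 root listed 0. None of these loops entered the comparison of chromosome pairs, and in windows only their ends on a placed chromosome counted.

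Both of the following blocks took more of the list in ZS97 root than in MH63 root but less in ZS97 seedling than in MH63 seedling, each with counting intervals that excluded 1, and the difference between tissues was not tested. At 17 to 18 Mb on chromosome 4 the ratio of ZS97 over MH63 was 1.65 in roots (1.57 to 1.74) and 0.945 in seedlings (0.904 to 0.987). At 20 to 21 Mb on chromosome 7 it was 1.69 in roots (1.56 to 1.82) and 0.880 in seedlings (0.813 to 0.952).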

How the results depend on the processing

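No paired analysis was possible because each deposited list pools both replicates; for the same reason no replicate could be left out. Regions higher in ZS97 root numbered 5528 on total tags, 2602 scaled on region pairs listed in both roots, 1041 with loops of at least 3 PETs, 2522 at a minimum of 1 PET, 540 at 100 PETs and 964 where listed in both roots, against 1573. Lower regions numbered 1190 on total tags, 1410 at an FDR under 0.001, 594 at 100 PETs and 1129 where listed in both, against 2130. Against 37 higher and 6 lower blocks, windows of 250 kb gave 78 and 23, and windows of 1 Mb 18 and 3. Loops within chromosomes only, scaled on their own PETs, gave 22 and 16. Loops of at least 3 PETs, also scaled on their own PETs, gave 23 and 11. A 2-fold limit gave 8 and 2, and total tags 51 and 1. On total tags the log2 ratios of the lower blocks on chromosome 11 (24.5 Mb), chromosome 12 (16.5 and 8 Mb) and chromosome 1 (12 Mb) reversed, to 0.43, 0.43, 0.46 and 0.10. No named region listed in both roots reversed under the scalings and loop filters in which both lists still held it. As these regions were picked for extreme ratios, the scalings could not reverse them, and this is no check.

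The excess of ZS97 in the share of loops between chromosomes was 13.2 percentage points, 9.498 with at least 3 PETs, 2.89 with at least 5, 22.6 at an FDR under 0.001 and 16.9 by PETs. The ratio of median spans was 1.49, 1.05 with at least 3 PETs, 1.04 at an FDR under 0.001, and reversed to 0.817 with at least 5 PETs and 0.836 by PETs. Hubs shared were 56% within chromosomes only and 69% by PETs. Called chromosome pairs numbered 66 higher as a share of the list and 1 lower with loops of at least 3 PETs, and were 0 otherwise. Strong pairs found in the other root were 1.31% of ZS97 and 2.65% of MH63 pairs at 5 PETs, and 10.3% and 14.7% at 20. Alternatives for shared region pairs, chosen after seeing the data, gave 567 higher and 1246 lower on PETs within chromosomes, 2463 and 300 on total tags, 202 and 3057 unscaled and 54 and 346 at 100 PETs, against 333 and 1876. The cause of these shifts was not tested beyond the construction of each alternative. Total tags were 13.4 M in ZS97 root and 41.3 M in MH63 root, and loops of 2 PETs numbered 66608 and 30138. The part of depth in the listing of weak loops was not tested.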
